A study of Mus musculus with 405 samples.

Results

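A set of 6 genes of thyroid hormone metabolism and response, Dio2, Dio3, Thra, Thrb, Hr and Klf9, were followed in mouse cortical neuron cultures exposed to environmental chemicals. They were chosen by symbol, and all 6 were present among the 13304 genes of the screen table and the 23893 genes of a separate pyraclostrobin count table. Cultures came from embryos of C57BL/6J dams crossed to CAST/EiJ males (embryonic day 15 in the labels), so every culture was an F1 hybrid. Each received 1 chemical or vehicle on day in vitro 7 for 24 h, and polyA RNA was sequenced. The plating medium held serum and the later feeding medium did not. Only part of the medium was exchanged at each change, so the plating serum was diluted and not removed. Both media contained B27 supplement, and an inhibitor of mitosis was present from the first medium change onward. The screen table holds 49 vehicle libraries and 344 libraries of 297 chemicals. Of these chemicals, 282 had 1 library and 257 were given at 10 µM, with the rest between 0.01 and 1 µM. Topotecan, a topoisomerase I inhibitor given at 0.3 µM, had 32 libraries. The count table holds 4 libraries of 0.1 µM pyraclostrobin, a strobilurin fungicide that inhibits respiratory complex III, and 4 vehicle libraries numbered 1 to 4 in matching header pairs. The labels do not say whether libraries of a group came from separate cultures, and the study describes fewer biological replicates than libraries for its replicated sequencing, so some libraries may share a culture. Here n counts libraries, and p-values measure the spread between them, which may be technical in part.

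In the brain, thyroxine is activated to triiodothyronine (T3) by the type 2 deiodinase Dio2, an enzyme of astrocytes and tanycytes. The type 3 deiodinase Dio3 inactivates both hormones and is found in neurons. T3 binds the nuclear receptors encoded by Thra and Thrb, of which the Thra product is the more abundant in brain and also gives a splice form that does not bind hormone. Hr encodes a corepressor of these receptors, and Hr and Klf9 are induced by T3 in developing brain. Klf9, a zinc finger transcription factor, is also induced by glucocorticoids, and B27 is known to hold both T3 and corticosterone.

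In mm9 (NCBIM37, GENCODE vM1 annotation) the members lie on 4 chromosomes. Dio2 is at chr12:91962994-91976878 on the minus strand and Dio3, a gene of 1 exon, at chr12:111517278-111519307 on the plus strand, at the end of the imprinted Dlk1-Dio3 domain. Thra is at chr11:98601952-98630320, Thrb at chr14:18493474-18870602, Hr at chr14:70952019-70973355 and Klf9 at chr19:23215716-23241401, all on the plus strand. Thrb spans 377 kb, against 28.4 kb for Thra and 25.7 kb for Klf9. Exons of Thra overlap those of the antisense gene Nr1d1, a circadian repressor, by 263 bases, and exons of Dio2 overlap those of antisense Gm16738 by 100 bases. The library kit does not mark strand, so reads from these overlaps cannot be told apart.

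Promoters matched for 4 of the 6 genes, giving 5 windows of the 250 bases before the annotated start in RefSeq (GRCm38.p6). They are shown because Dio2 is a textbook cAMP-responsive gene and because the receptor genes respond to their own ligand. The letters AGGTCA (the core to which thyroid hormone receptors bind), TGACGTCA (the cAMP response element) and TATAAA were searched on both strands and are in capitals. Over all 32851 promoter windows, 14% held AGGTCA, 1.55% held TGACGTCA and 12.4% held TATAAA. No searched motif overlapped another in the windows printed here.
Dio2, chr12:90739039-90739288, minus strand: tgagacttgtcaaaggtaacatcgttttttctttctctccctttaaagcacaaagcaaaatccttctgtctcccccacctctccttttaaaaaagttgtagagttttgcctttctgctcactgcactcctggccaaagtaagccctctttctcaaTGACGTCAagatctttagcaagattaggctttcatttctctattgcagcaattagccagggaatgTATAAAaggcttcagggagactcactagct
Dio3, chr12:110278980-110279229, plus strand: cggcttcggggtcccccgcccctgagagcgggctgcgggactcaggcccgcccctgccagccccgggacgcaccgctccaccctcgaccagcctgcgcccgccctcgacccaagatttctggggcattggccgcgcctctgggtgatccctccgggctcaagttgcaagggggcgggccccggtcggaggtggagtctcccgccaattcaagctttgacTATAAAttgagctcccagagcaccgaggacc
Thrb, upstream promoter, chr14:17660710-17660959, plus strand: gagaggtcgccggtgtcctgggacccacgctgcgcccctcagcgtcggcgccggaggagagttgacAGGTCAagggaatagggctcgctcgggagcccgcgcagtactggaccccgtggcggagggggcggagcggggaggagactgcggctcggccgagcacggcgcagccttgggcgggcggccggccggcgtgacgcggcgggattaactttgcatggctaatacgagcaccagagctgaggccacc
Thrb, downstream promoter, chr14:17981394-17981643, plus strand: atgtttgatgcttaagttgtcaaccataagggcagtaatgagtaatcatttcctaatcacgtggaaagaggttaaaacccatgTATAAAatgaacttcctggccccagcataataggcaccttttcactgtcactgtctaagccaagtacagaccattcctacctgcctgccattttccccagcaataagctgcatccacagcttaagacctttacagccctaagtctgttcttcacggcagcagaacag
The Dio2 window held TGACGTCA 95 bases before the start and TATAAA 30 bases before it. Dio3 held TATAAA 31 bases before its start in a window of 69.6% GC. Of the Thrb windows, the upstream one held AGGTCA 184 bases before its start and the downstream one TATAAA 167 bases before its start. The Klf9 window held none of the 3 motifs. These are matches of letters, with no measurement of binding.

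The count table gives the levels. Total counts were 2409623 to 2550437 in pyraclostrobin libraries and 2778615 to 7833440 in vehicle libraries, the latter with pairs 3 and 4 sequenced deeper than pairs 1 and 2. Levels are counts scaled to library size (CPM) with TMM factors, and between genes they are compared per kb of GENCODE exon. In vehicle, Thra was highest at 139 ± 19.4 CPM per kb (SD, n = 4), followed by Klf9 at 25 ± 8.26 and Thrb at 5.96 ± 1.22. Dio2 (2.44 ± 0.324), Dio3 (1.53 ± 0.808) and Hr (1.22 ± 0.205) were at the low end. The ranges of Thra, Klf9 and Thrb did not overlap each other or those of the other genes, whereas Dio3 libraries, from 0.739 to 2.64, covered the whole range of Hr and reached into that of Dio2. Dio1, the deiodinase of liver and kidney, and Dio3os, the antisense transcript at Dio3, had 0 counts in all 8 libraries. A count of 0 allows up to 3 counts per library, and the limit covers counting error only.

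Vehicle library 1 stood apart from the other vehicle libraries. Its Klf9 level was 41.7 CPM where the other 3 were 88.7 to 98.2, and its Thra level was 776 CPM where they were 582 to 608. Astrocyte markers are also uneven in the table: the summed level of the 6 genes ranged from 318 to 957 CPM in vehicle. Vehicle library 1 had the highest sum, and the median was 342 CPM. The pyraclostrobin library of the first pair is also the pyraclostrobin library of the screen, so the tables share it. Results are therefore given with and without that library or pair where it matters.

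Pyraclostrobin raised Dio2 and lowered Thra, while the other 4 members did not pass the test. The background was wide: edgeR's quasi-likelihood test with Benjamini-Hochberg adjustment called 4301 of 12324 genes (34.9%), 18.5% higher and 16.4% lower, and 2 of the 6 members is near that share. The median log2 change was 0.00 over all genes tested and -0.19 over the 6 members.

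Dio2, the activating deiodinase, read 28.3, 26.3, 19 and 28.4 CPM in pyraclostrobin libraries 1 to 4 and 11.8, 16.3, 14.6 and 14.1 CPM in vehicle libraries 1 to 4. Every treated library lay above every vehicle library. The log2 change was 0.84 (SE 0.19, adjusted p = 0.0051). Raw counts were low, from 33 to 108. Dio3, the inactivating deiodinase, read 1.57, 4.13, 3.43 and 1.97 CPM with pyraclostrobin and 5.35, 3.11, 2.43 and 1.5 CPM in vehicle. These groups overlapped throughout, with 4 to 18 reads per library, and a difference was not detectable at this depth (log2 change -0.03, SE 0.48, adjusted p = 0.973).

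Thra read 349, 451, 393 and 463 CPM with pyraclostrobin and 776, 608, 605 and 582 CPM in vehicle. The groups did not overlap. Its log2 change was -0.63 (SE 0.13, adjusted p = 0.00358), on 889 to 4489 reads per library. Thrb read 20.4, 34.6, 34.6 and 37.1 CPM with pyraclostrobin and 27.8, 42, 46.4 and 41.7 CPM in vehicle. Within each group library 1 was the lowest, and the groups overlapped only through vehicle library 1. The log2 change of Thrb was -0.33 (SE 0.21, adjusted p = 0.268). Without the first pair, a setting chosen after seeing the data, the change of Thrb was -0.30 and narrowly passed the test (adjusted p = 0.0497). In that fit 6246 of 12441 genes passed.

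Klf9 read 67.5, 63.9, 68.5 and 67.9 CPM with pyraclostrobin, a narrow range, and 41.7, 88.7, 98.2 and 97.7 CPM in vehicle. The treated libraries lay below vehicle libraries 2 to 4 and above vehicle library 1. With all libraries the log2 change was -0.30 (SE 0.23, adjusted p = 0.348). Leaving out vehicle library 1 gave -0.51 (adjusted p = 0.00107), and leaving out the first pair gave -0.52 (adjusted p = 0.000128), so 1 vehicle library decided this call. Hr, the corepressor, read 10.6, 5.64, 7.61 and 7.50 CPM with pyraclostrobin and 9.63, 9.73, 7.01 and 7.50 CPM in vehicle. The groups overlapped and the log2 change was -0.08 (SE 0.25, adjusted p = 0.83).

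**Figure D1:**
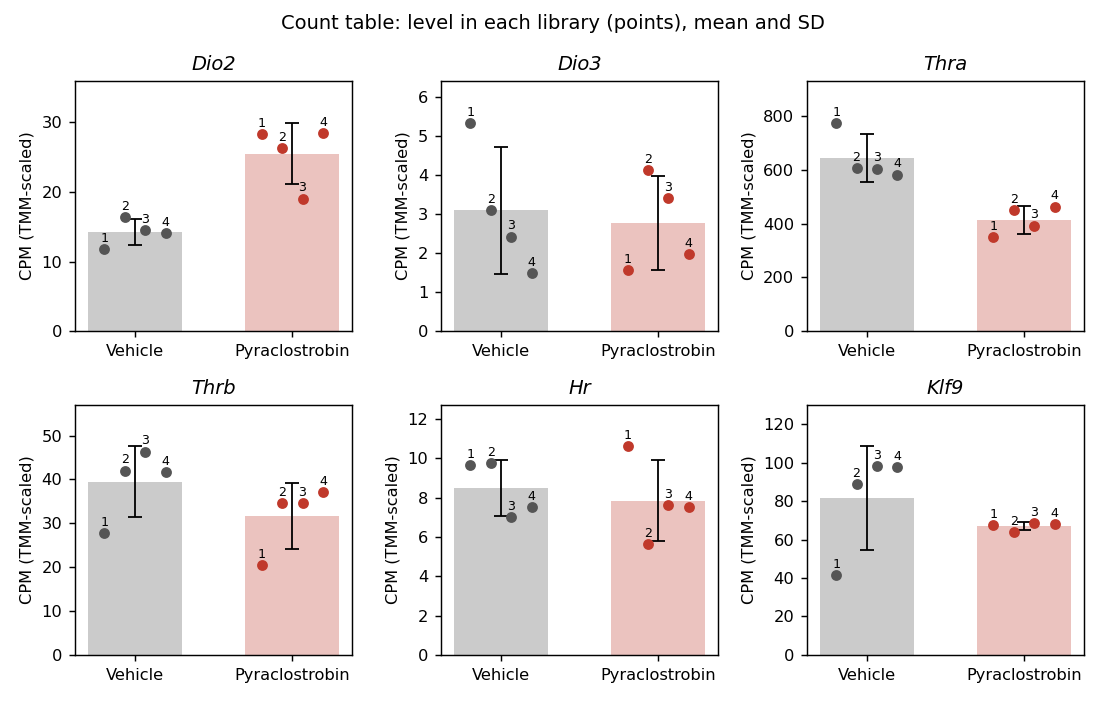
TMM-scaled CPM (vertical axis, from 0) of the 6 genes in the count table. Points are libraries numbered by header pair, bars are group means and error bars SD (n = 4). Dio2 and Thra groups do not overlap, and vehicle library 1 is low for Klf9 and high for Thra.

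Cell type markers moved in the same libraries. All 5 neuron markers fell, and their summed level was 2536 to 3233 CPM with pyraclostrobin and 6062 to 6351 CPM in vehicle. Of 6 astrocyte markers 4 rose, with sums of 834 to 3134 against 318 to 957 CPM. In both groups library 1, of the first header pair, had the highest astrocyte sum, and the median sums were 920 and 342 CPM. The 3 microglia markers tested rose (45.1 to 70.8 against 12.8 to 19.3 CPM for the list of 5) and so did the 3 vascular and mesenchymal markers tested (681 to 961 against 45.8 to 108 CPM for the list of 5), while the endothelial marker Cldn5 had 0 counts in every library. Oligodendrocyte lineage markers were mixed, with 2 of 4 higher and 1 lower and sums of 145 to 264 against 71.6 to 169 CPM. The part of these shifts in the changes of Dio2 and Thra was not tested, and in a mixed culture fewer cells of a type and less RNA per cell cannot be told apart. For scale, the neuron markers had a median log2 change of -1.19 and Thra one of -0.63, and Dio2 rose by 0.84 where the astrocyte markers had a median of 1.99.

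Around the members, counts in each list are set beside the 18.5% of all genes that rose and the 16.4% that fell. Of 8 genes tested for transport or binding of thyroid hormone, 4 rose and none fell, with a median log2 change of 0.90. Slco1c1, the thyroxine transporter of glia and brain endothelium, rose by 1.67 (SE 0.39, adjusted p = 0.00715), Slc3a2 by 1.18 (adjusted p = 0.000278), Slc7a5, its partner in amino acid transport, by 0.97 (adjusted p = 0.00134), and Slc16a10 by 0.84 (adjusted p = 0.0275). Of 8 genes tested for deiodinase turnover and selenoprotein synthesis, on which deiodinases depend, none rose and 2 fell: Usp20, a deubiquitinase of Dio2, by 0.95 on the log2 scale (adjusted p = 0.00116) and Sephs2 by 0.50 (adjusted p = 0.0144).

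Among 13 receptor partners, 2 rose and 3 fell, with a median of -0.04, a share near the 34.9% called over all genes. The retinoid X receptors are dimer partners of Thra and Thrb: Rxra rose by 1.28 (adjusted p = 0.000966) and Rxrg, on 1 to 39 reads, had a log2 change of -1.46 (adjusted p = 0.0203). Tbl1x of the corepressor complex rose by 0.91 (adjusted p = 0.0461) and its deacetylase Hdac3 fell by 0.50 on the log2 scale (adjusted p = 0.0358). Of 7 further T3-induced brain genes that passed the count filter, out of 8, 3 fell and 1 rose (median -0.31). Those that fell were the neuronal genes Nrgn (-1.67, adjusted p = 0.00405), Sema7a (-1.03, adjusted p = 0.00019) and Camk4 (-1.02, adjusted p = 0.000935), and the one that rose was Kcnj10, a potassium channel of astrocytes (1.25, adjusted p = 0.000989). Neuron markers fell and astrocyte markers rose in the same libraries.

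The remaining lists gave context for Klf9, Dio2, Dio3 and Thra. Of 6 glucocorticoid response genes 3 rose, led by the receptor gene Nr3c1 (1.23, adjusted p = 0.00123), and none fell, with a median of 0.50. Of 7 activity-induced genes 5 rose and none fell (median 0.86), with Fos at 1.92 (adjusted p = 0.00393) and Fosb at 1.76 (adjusted p = 0.00253). In the imprinted domain that ends at Dio3, Dlk1 rose by 2.44 (adjusted p = 0.000421) while the noncoding RNAs Meg3 (-1.57, adjusted p = 0.00324) and Rian (-1.5, adjusted p = 9.12e-06) fell. Nr1d1, whose exons overlap Thra on the other strand, had a log2 change of -0.71 (adjusted p = 0.0017), close to that of Thra. Without the first pair the transport list gave 5 higher and 2 lower, the T3-induced list 1 higher and 4 lower, and the activity-induced list 6 higher. More genes were called in that fit as a whole, 6246 of 12441, of which 3149 were higher and 3097 lower.

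The screen table holds centred log10 RPKM values, here shown on the log2 scale as differences from the median of the 49 vehicle libraries, so it gives deviations and no levels. Between vehicle libraries the SD was 0.11 for Thra, which was less variable than all but 7.87% of genes, 0.16 for Thrb, 0.21 for Klf9, 0.30 for Dio2, 0.37 for Hr and 1.03 for Dio3, at the 99.1 percentile. Over the 297 chemicals the SDs were 0.13, 0.21, 0.21, 0.33, 0.39 and 0.84 in the same order. The ratio of the SD over chemicals to that over vehicle libraries was 1.29 for Thrb, 1.12 for Thra, 1.09 for Dio2, 1.06 for Hr, 0.998 for Klf9 and 0.817 for Dio3, against a median of 1.04 over all genes. By SD, Dio3 thus varied less over chemicals than over vehicle libraries, and its single values carry the widest error of the 6. Scaled median absolute deviations, which weigh outlying libraries less, were 0.77 over chemicals and 0.80 over vehicle libraries for Dio3. In that order they were 0.18 and 0.14 for both Klf9 and Thrb and 0.30 and 0.34 for Dio2. For Hr they were 0.38 and 0.37, and for Thra 0.10 in both.

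Few single chemicals moved a member far. A difference of at least 1 from the vehicle median was seen for 1 chemical in each direction for Dio2 and for Hr, for none for Thra, Thrb and Klf9, and for 70 chemicals for Dio3, 14 above and 56 below. Over all genes and chemicals 1.1% of values lay at least 1 above and 1.89% at least 1 below. Against the range of the vehicle libraries, Thrb was lower with 21 of 297 chemicals and higher with 7, Thra was lower with 1 and higher with 19, Dio2 was lower with 13 and higher with 10, and Hr was lower with 11 and higher with none. Klf9 was lower with 2 chemicals and higher with none, and Dio3 higher with 1 and lower with none. The shares over all genes were 2.07% above and 2.69% below. For Thra the lower end of that range was 1 vehicle library at -0.49, the same library that was highest for Klf9 at 0.82 and lowest for Dio3 at -3.47, and the next lowest vehicle library was at -0.19. With that library set aside after seeing the data, 21 chemicals lay below all remaining vehicle libraries for Thra. Setting aside the lowest vehicle library of each other gene gave 33 for Thrb, 21 for Klf9, 15 for Dio2, 13 for Hr and 3 for Dio3. The share over all genes was not computed for this step.

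Dio2 and Hr were shifted as groups. The median over chemicals lay 0.15 above the vehicle median for Dio2 and 0.17 above it for Hr, higher than in 95.2% and 96.1% of genes, while that of Dio3 lay 0.15 below. For Thra it lay at 0.00, for Thrb at -0.06 and for Klf9 at 0.02. Classes of chemicals are compared with the other chemicals, as the study did for its clusters, and topotecan and fenamidone with vehicle. A single value for Dio2 or Hr, or a difference from vehicle, is best read against this shift. Nothing in the labels ties vehicle and chemical libraries to culture batches, so batch cannot be checked here.

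**Figure D2:**
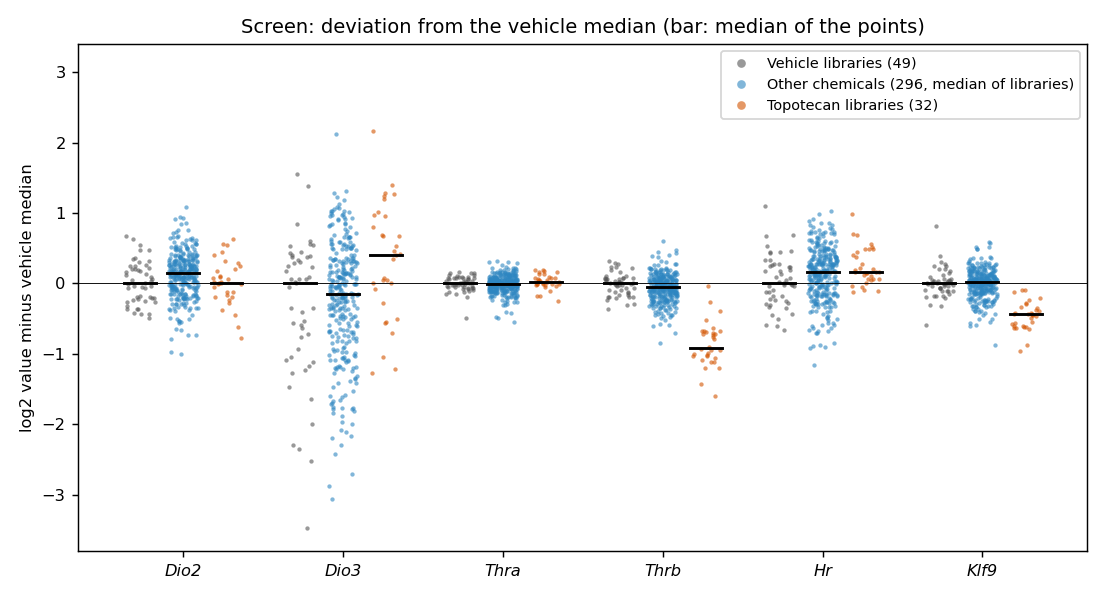
Log2 deviation from the vehicle median (vertical axis) in the screen, with 49 vehicle libraries, 296 chemicals (median of their libraries) and 32 topotecan libraries for each gene. Bars are medians. Thrb and Klf9 are lower with topotecan, and Dio3 is the most scattered gene in every set.

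The extremes differed from gene to gene. For Thra the lowest chemicals were trifloxystrobin (-0.54), fenpyroximate (-0.49), pyraclostrobin (-0.47), diquat dibromide (-0.42) and fenamidone (-0.41), of which diquat is a redox cycling herbicide and the others are inhibitors of the respiratory chain. The highest were spirodiclofen (0.31), pyrimethanil and imazapyr (both 0.30), endosulfan (0.28) and EPTC (0.27). For Thrb the lowest were topotecan (-0.92), camptothecin (-0.85), spirodiclofen (-0.70), tribufos (-0.61) and irinotecan (-0.59). Topotecan, camptothecin and irinotecan are the 3 topoisomerase I inhibitors of the screen. Prallethrin (0.60) and ethofumesate (0.48) were highest for Thrb.

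Klf9 was lowest with camptothecin (-0.87), boscalid (-0.61), oxyfluorfen (-0.59), disulfoton (-0.56) and indoxacarb (-0.55). It was highest with methylene bis(thiocyanate) (0.59), dicofol (0.58), methomyl (0.52), trifluralin (0.51) and niclosamide (0.49), though the highest vehicle library was at 0.82. Dio2 was highest with dicofol (1.08), piperonyl butoxide (0.95), butachlor (0.93), cyanazine (0.91) and tri-allate (0.85), and lowest with chlorothalonil (-1.01), 2,4-D (-0.97) and spirodiclofen (-0.79). Chlorothalonil had 2 libraries, at -1.65 and -0.36, so that its value rests mostly on 1 of them. Hr was lowest with HPTE, the dihydroxy metabolite of methoxychlor (-1.15) and highest with the phthalate metabolite MEHP (1.03). Dio3 ran from -3.06 with diquat dibromide to 2.12 with flutolanil, and its vehicle libraries ran from -3.47 to 1.55.

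Chemicals with 2 libraries show how far a single value can be trusted. Both fenamidone libraries read -0.41 for Thra, both famoxadone libraries -0.29 and -0.25, and the rotenone libraries -0.25 and -0.23. Hr gave 0.45 and -1 in the libraries of picloram and 0.14 and -1.54 in those of prochloraz. Those were among the closest pairs for Thra and the widest for Hr. Over the 13 chemicals with 2 libraries, the libraries differed by 0.00021 to 0.28 for Thra (median 0.10) and by 0.0075 to 1.68 for Hr (median 0.20). The median difference was 0.13 for Thrb, 0.15 for Dio2, 0.18 for Klf9 and 0.43 for Dio3. The 4 libraries of diethyltoluamide, the insect repellent, ran from -0.09 to 0.32 for Thra and from -0.54 to 0.07 for Klf9.

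Topotecan lowered Thrb and Klf9 and left Thra unshifted within the error. The limma test called 6087 of 13304 genes (45.8%), 24.8% higher and 20.9% lower, and 4 of the 6 members passed, 2 in each direction. Thrb in the 32 topotecan libraries ran from -1.60 to -0.04 with a median of -0.92, against -0.37 to 0.32 in vehicle. Of the 32 libraries 30 lay below every vehicle library, where over all genes 6.52% of values did so. The log2 difference of Thrb was -0.85 (SE 0.05, adjusted p = 4.31e-25), and a two-sided permutation test gave p = 0.00001, the smallest that 100000 resamples can give. Klf9 ran from -0.96 to -0.09 with a median of -0.44, and 9 of 32 libraries lay below every vehicle library, 1 of which was itself at -0.60. All 32 were below the vehicle median, and the difference was -0.47 (SE 0.05, adjusted p = 2.33e-14).

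Thra, by contrast, ran from -0.25 to 0.20 with topotecan, and its difference was 0.03 (SE 0.03, adjusted p = 0.356). That of Dio2 was 0.00 (SE 0.07, adjusted p = 0.994). Dio3 was higher by 0.70 (SE 0.21, adjusted p = 0.00495) and Hr by 0.22 (SE 0.07, adjusted p = 0.0135), with wide overlap. The topotecan median of Hr, 0.17 above that of vehicle, was the same as the median over all 297 chemicals, so Hr with topotecan lay no further from vehicle than the chemicals did in general. For Dio3 the medians differed by 0.41, less than the 0.70 of the test, which compares means. A few vehicle libraries lay far below the rest, and the vehicle mean of Dio3 was at -0.37 from the vehicle median. Without the vehicle library that was lowest for both Thra and Dio3, the difference was 0.63 for Dio3 (adjusted p = 0.00668) and -0.45 for Klf9 (adjusted p = 1.81e-15).

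Thrb is the only long gene of the 6. Of the 12388 genes with a GENCODE span, 12.7% of those up to 100 kb were called lower with topotecan, 53% of those of 100 to 200 kb, 78.9% of those of 200 to 400 kb and 92.6% of those over 400 kb. The median difference of the 512 genes of 200 to 400 kb was -0.41, and 33 of them were at least as low as Thrb. Klf9, with a span under 100 kb, belonged to the length class in which the median difference was 0.05.

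Camptothecin at 0.3 µM and irinotecan at 10 µM had 1 library each. Camptothecin, the parent alkaloid, read -0.85 for Thrb and -0.87 for Klf9, both outside the vehicle range. Irinotecan, a carbamate prodrug of the same ring system, read -0.59 for Thrb and -0.13 for Klf9, the latter inside it. Thra read 0.02 and -0.07. With single libraries the difference between these compounds has no replicate check, and the doses of irinotecan and the other 2 differ.

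In the other lists, where 45.8% of all genes were called, the T3-induced genes had 5 of 8 lower and 1 higher with topotecan, with Sema7a at -0.95 (adjusted p = 7.47e-27), Ppargc1a at -0.89 (adjusted p = 1.59e-26) and Mbp, the myelin gene, at 0.20 (adjusted p = 0.00204). Of 8 transport and binding genes 4 were lower and 1 was higher, the T3-binding crystallin Crym at 0.54 (adjusted p = 8.97e-05). Receptor partners had 5 of 13 lower and 2 higher, a share near that over all genes, with the coactivators Ncoa1 (-0.29, adjusted p = 9.3e-11) and Ncoa2 (-0.29, adjusted p = 4.31e-13) lowest. Deiodinase turnover and selenoprotein genes had 3 of 8 lower and 1 higher. Glucocorticoid response genes had 4 of 6 lower and 1 higher, among them Zbtb16 at -0.74 (adjusted p = 4.51e-19) and, higher, Tsc22d3 at 0.28 (adjusted p = 7.25e-07). Activity-induced genes had 5 of 7 lower, and the imprinted domain 2 of 5. Medians were -0.32 for T3-induced genes, -0.23 for transport, 0.00 for receptor partners and 0.00 for deiodinase turnover, beside 0.03 over all genes. All 5 neuron markers (median -0.36) and 4 of 6 astrocyte markers (median -0.46) were lower in the same libraries, and their part in the changes of Thrb and Klf9 was not tested.

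Inhibitors of the Qo site of complex III lowered Thra. The class holds 6 fungicides, 4 of them strobilurins with a methoxyacrylate or related toxophore (azoxystrobin, fluoxastrobin, pyraclostrobin and trifloxystrobin), beside famoxadone and fenamidone, which bind the same site with other ring systems. Thra read -0.54 with trifloxystrobin, -0.47 with pyraclostrobin, -0.41 with fenamidone, -0.30 with fluoxastrobin, -0.27 with famoxadone and -0.10 with azoxystrobin. All 6 lay below the median of the other 291 chemicals. The limma difference was -0.35 (SE 0.05, adjusted p = 5.89e-10), and the permutation test gave p = 0.00001. The background was 20.5% of genes called, 6.99% higher and 13.6% lower, and 1 of the 6 members passed. Pyraclostrobin here is the library it shares with the count table, so the tables are not independent. Without it, and with each other chemical left out in turn, Thra kept its sign and passed.

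Doses within this class were 0.1 µM for azoxystrobin and pyraclostrobin, 1 µM for fluoxastrobin and 10 µM for the other 3. At the matched dose of 0.1 µM, pyraclostrobin with 1 library read -0.47 and the 2 libraries of azoxystrobin -0.12 and -0.08. At 10 µM trifloxystrobin (1 library), fenamidone and famoxadone (2 libraries each) read -0.54, -0.41 and -0.27. These pairs have 1 or 2 libraries each and were not tested. For Dio2 all 6 read above the vehicle median, from 0.05 with fluoxastrobin to 0.63 with fenamidone and 0.61 with famoxadone. Against other chemicals, whose Dio2 median is itself shifted up, the difference was 0.26 (SE 0.13) and did not pass (adjusted p = 0.171). Thrb had a difference of -0.17 (adjusted p = 0.153), Klf9 one of -0.13 (adjusted p = 0.355), Dio3 one of -0.31 (adjusted p = 0.617) and Hr one of 0.03 (adjusted p = 0.926).

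Fenamidone alone, with 2 libraries at 10 µM against 49 vehicle libraries, gave Thra a difference of -0.41 (SE 0.08, adjusted p = 9.06e-05), in a fit in which 16.1% of genes were called, 4.88% higher and 11.2% lower. Dio2 was at 0.61 (SE 0.23, adjusted p = 0.053), just short of the threshold, and passed when the spread came from fenamidone and vehicle libraries alone (adjusted p = 0.0382). Both are differences from vehicle, above which the Dio2 median over all chemicals lay by 0.15. Thrb was at -0.31 (adjusted p = 0.219), Klf9 at -0.12 (adjusted p = 0.683), Hr at 0.25 (adjusted p = 0.609) and Dio3 at 0.07 (adjusted p = 0.97).

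Most genes of the pathway lists did not pass in the complex III class, where 20.5% of all genes were called. Of 8 transport and binding genes 3 were higher and none lower, namely Slco1c1 (0.45, adjusted p = 0.0273), Slc7a5 (0.29, adjusted p = 0.00259) and Slc3a2 (0.27, adjusted p = 0.00731). The T3-induced list had 3 of 8 lower, Nrgn, Camk4 and Sema7a at -0.34 to -0.41, and Kcnj10 higher at 0.33 (adjusted p = 0.0196). Of 8 deiodinase turnover and selenoprotein genes 3 were lower and none higher, Usp20 at -0.23 (adjusted p = 0.0182), Sephs2 at -0.18 (adjusted p = 0.0147) and Usp33 at -0.17 (adjusted p = 0.00588). Nr3c1 (0.35, adjusted p = 0.00016) and Tsc22d3 (0.27, adjusted p = 0.0284) were higher, Meg3 (-0.68, adjusted p = 7.68e-05) and Rian (-0.64, adjusted p = 1.13e-14) were lower, and none of 13 receptor partners passed. Medians were 0.22 for transport, -0.25 for T3-induced genes and -0.07 for deiodinase turnover, with 0.00 over all genes. Of the activity-induced genes only Npas4 passed, at -0.77 (adjusted p = 0.00904), and Nr1d1 was lower by a difference of -0.26 (adjusted p = 2.11e-05). All 5 neuron markers were lower (median -0.41), and 3 of 6 astrocyte markers and all 3 vascular and mesenchymal markers tested were higher (medians 0.42 and 0.96). The part of these shifts in the Thra difference was not tested. The study counted neurons, astrocytes and microglia by immunostaining, for fenamidone alone of this class. It reports no significant change in their numbers relative to vehicle, and states that other non-neuronal cell types were not accounted for.

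Complex I inhibitors, 4 in number, gave a smaller and less even Thra difference. Fenpyroximate read -0.49, rotenone -0.24, pyridaben -0.10 and tebufenpyrad 0.16. Doses were 0.1 µM for fenpyroximate and pyridaben and 0.01 µM for rotenone and tebufenpyrad, so tebufenpyrad, alone above the vehicle median, was among those at the lower dose. The difference was -0.16 (SE 0.06, adjusted p = 0.149), with 4.55% of genes called, 0.564% higher and 3.98% lower, and no member passed. Without tebufenpyrad it was -0.27 and passed (adjusted p = 0.00623), and without fenpyroximate it was -0.053 and did not (adjusted p = 1), so its size rested on single chemicals. Without rotenone it was -0.13 and without pyridaben -0.18, and neither passed. Neuron markers, 2 of 5 lower, moved here too.

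**Figure D3:**
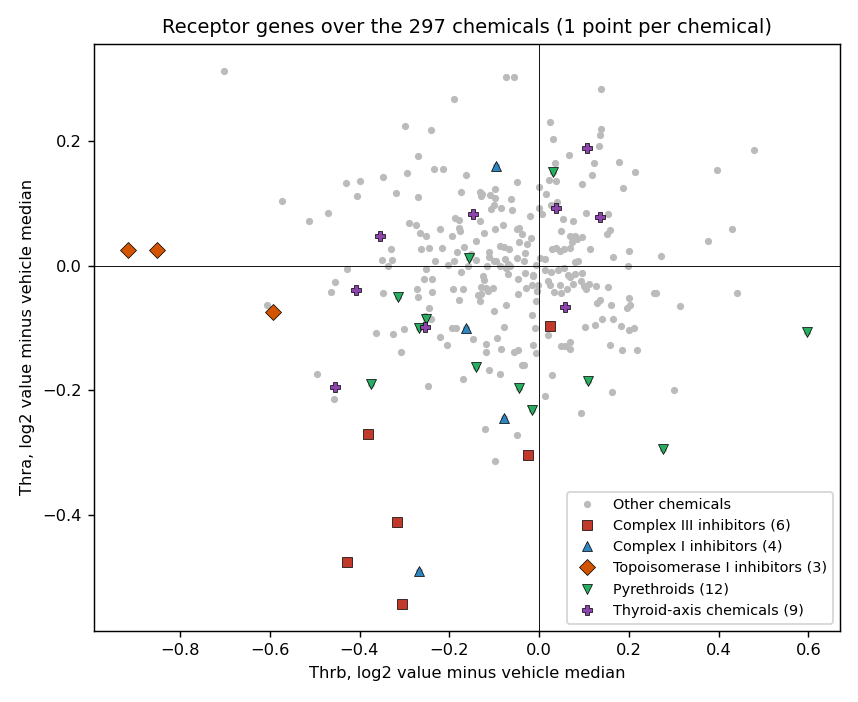
Thra against Thrb, each as log2 deviation from the vehicle median, with 1 point per chemical and classes marked. Complex III inhibitors sit low on the Thra axis, and the 3 topoisomerase I inhibitors sit far left on the Thrb axis at Thra values from -0.07 to 0.02.

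Pyrethroids, 12 insecticides that hold sodium channels open, had no member past the threshold in a class with 0.451% of genes called, 0.256% higher and 0.195% lower. Thra read below the median of the other chemicals in 10 of the 12, from -0.29 with S-bioallethrin to 0.15 with d-cis,trans-allethrin, for a difference of -0.11 (SE 0.04, adjusted p = 0.122). Its permutation test, 1 of 30 run over the members and classes, gave p = 0.00299, which is not adjusted because those tests cover the chosen members alone. Without d-cis,trans-allethrin, the highest of the 12, the difference was -0.14 and passed (adjusted p = 0.0363). With any other pyrethroid left out it did not pass. Doses were 1 µM for d-cis,trans-allethrin, 0.1 µM for tefluthrin, which read -0.19 for Thra, and 10 µM for the rest. The part of dose was not tested. Dio3 was lower than that median in 11 of the 12, with a difference of -0.57 (SE 0.24, adjusted p = 0.288). Cypermethrin was lowest for Dio3 at -2.09, still inside the vehicle range. The difference was 0.12 for Klf9 (adjusted p = 0.466), 0.09 for Hr (adjusted p = 0.837), 0.06 for Dio2 (adjusted p = 0.873) and 0.02 for Thrb (adjusted p = 0.929). Of the related lists 1 gene passed, in transport and binding.

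Chemicals known to act on the thyroid axis did not move these genes detectably. The class holds ethylenethiourea, a thyroid peroxidase inhibitor, and the dithiocarbamates mancozeb, maneb and metiram-zinc, which give rise to it, together with triclosan, bisphenol A, perfluorooctane sulfonic acid, perfluorooctanoic acid and fipronil, which bind the receptor in vitro or lower serum thyroxine in rodents. Peroxidase is an enzyme of the thyroid gland, which is not present in these cultures. In the limma test 0 of 13304 genes passed (0%), and 430 had an unadjusted p under 0.05. The count was also 0 with a variance trend, with vehicle libraries as reference and with each of the 9 chemicals left out.

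Differences of the members in this class were 0.09 (SE 0.07) for Klf9, 0.04 (SE 0.11) for Dio2, 0.02 (SE 0.04) for Thra, -0.07 (SE 0.07) for Thrb, -0.07 (SE 0.13) for Hr and -0.14 (SE 0.28) for Dio3, each with an adjusted p = 1. Single values ran from -0.19 with metiram-zinc to 0.19 with bisphenol A for Thra, from -0.46 with metiram-zinc to 0.14 with perfluorooctane sulfonic acid for Thrb, and from -0.13 with maneb to 0.37 with metiram-zinc for Klf9. Bisphenol A was highest of the 9 for Dio2 at 0.72, just above the highest vehicle library at 0.68. Metiram-zinc and perfluorooctanoic acid (-0.41) lay below the vehicle range for Thrb. The 2 libraries of ethylenethiourea read -0.16 and 0.24 for Thrb and -0.46 and 0.51 for Dio2, on either side of vehicle.

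**Figure D4:**
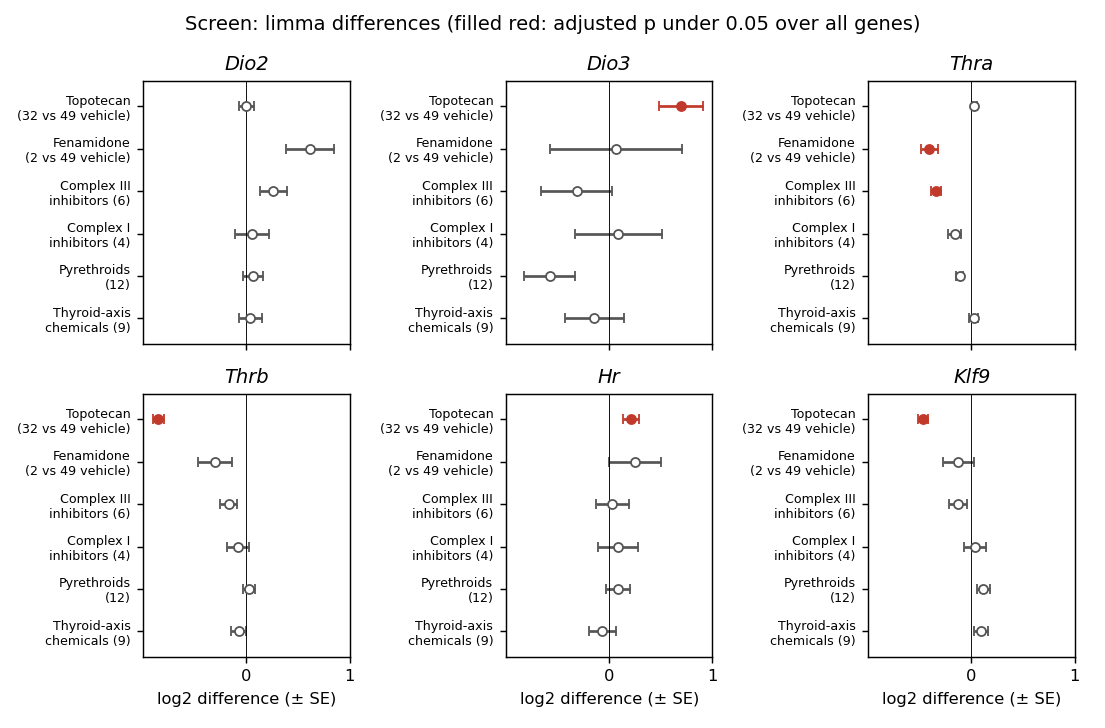
Log2 differences with SE (horizontal axis) of each gene in 6 comparisons of the screen, filled red where the limma adjusted p over all genes was under 0.05. Topotecan and fenamidone are set against vehicle, the classes against the other chemicals. Thra passes with fenamidone and complex III inhibitors, and Thrb, Klf9, Dio3 and Hr pass with topotecan.

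The members did not vary as a block over the screen. Among the 15 pairs of members, Pearson r over the 297 chemicals ran from -0.20 for Dio2 with Thra to 0.25 for Hr with Klf9, and was 0.02 for Thra with Thrb. The genes most like each member were others. For Thra they were Agap2 (r = 0.71), the Arf exchange factor gene Psd (0.69) and Clstn1 (0.69), and for Thrb they included Hecw1 (0.55) and Dclk1 (0.55). For Klf9 they were the calcium pump gene Atp2a2 (0.62), Brinp1 (0.58) and the glial glutamate transporter Slc1a2 (0.57). Dio2 was most like Slitrk2 (0.40), the endothelin receptor gene Ednrb (0.37) and Tmem47 (0.34). Dio3 was most like Sez6 (0.43), Ntsr1 (0.42) and Sla (0.38), and Hr like Mmp17 (0.31), Sstr2 (0.31) and Gpr153 (0.29). The 95th percentile of r over all genes was 0.331 for Thra, 0.282 for Thrb, 0.26 for Klf9, 0.166 for Dio3, 0.157 for Dio2 and 0.131 for Hr. These points share their normalization and most come from 1 library each, so r is given as a description.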

How the data were processed

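The screen table was deposited as log10 RPKM values that the authors had quantile-normalized, centred on the median and freed of culture and sequencing batch after TopHat alignment to mm9; here they were converted to log2. The deposited pyraclostrobin table holds raw counts per RefSeq gene, taken here as deposited. A gene was tested where 4 or more libraries had 10 counts or more, with edgeR 4.0.16 (quasi-likelihood, TMM, SE from the fold change and the F statistic). Screen comparisons used limma 3.58.1, in classes with the median of a chemical's libraries and for topotecan and fenamidone with single libraries. P-values were adjusted by Benjamini-Hochberg over all genes tested, with a threshold of 0.05. The scripts were tested on simulated data. All 6 members were named in every comparison. Of the lists, the genes past the threshold with the 2 largest and 2 smallest changes could be named, with the 3 most like genes and the 5 highest and lowest chemicals of each member. One of the most like genes is not reported here. Members and lists were chosen with earlier results of these data known. A further count table, with 6 columns under the same header, was not used, so a contrast of sulforaphane with vehicle was not run. Alternatives were DESeq2 1.42.0, other scaling, no filter, a threshold of 0.01, other references and left-out libraries. Total counts set the precision of the count table, and the depth behind the screen values is unknown.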

Additional observations from a re-analysis of the deposited data

Results flagged for a closer look

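Among 18 groups of 4 libraries examined, 5 held a library whose gap to its nearest neighbour took up most of the range of the group, measured by Dixon's ratio, where chance alone gives about 1 in 20. In the count table, vehicle library 1 was set apart for Klf9 (ratio 0.881, with the lowest level) and for Thra (0.849, with the highest level), and pyraclostrobin library 1 was set apart for Thrb (0.88, with the lowest level). These 2 libraries are the first header pair. In the screen, 1 of the 4 diethyltoluamide libraries was set apart for Klf9 (0.889, at -0.54 on the log2 scale) and 1 for Dio3 (0.843, at 0.82).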

How the results depend on the processing

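Of 394 recomputed values of single members, 363 kept their direction and their side of the threshold. Dio2 and Thra with pyraclostrobin, Thrb, Klf9, Dio3 and Hr with topotecan, and Thra with fenamidone and complex III inhibitors kept both under every alternative in which they were tested, except that Hr with topotecan (adjusted p = 0.0135) did not pass at a threshold of 0.01. Thra, Thrb and Klf9 are not among the 5121 variably expressed genes. The calls that Klf9, Thrb, Dio2 and Thra gained, 10 in all, include Dio2 (0.36 and adjusted p = 0.0291) and Thrb (-0.23 and adjusted p = 0.0144) in complex III inhibitors set against vehicle, Dio2 there over single libraries (0.32, adjusted p = 0.0243), and Thra in complex I inhibitors over single libraries (-0.18, adjusted p = 0.0491). Values whose sign changed were never past the threshold, and the cause was not tested. With pyraclostrobin, Dio3 changed to 0.54 without the first header pair, a setting chosen after seeing the data, and lay between -0.18 and 0.54 with libraries left out, and Hr between -0.31 and 0.0030. Without pyraclostrobin library 1, Dio3 was at 0.13. Dio2 with topotecan was at -0.0073 without the vehicle library lowest for Thra, also left out after seeing the data, and Dio3 with fenamidone ran from -0.20 to 0.34 with libraries left out. In complex I inhibitors over single libraries Dio3 was at -0.090 and Thrb at 0.0062. With chemicals left out, Dio3 there ran from -0.28 to 0.30, Hr from -0.017 to 0.19 and Klf9 from -0.072 to 0.12, and Hr in complex III inhibitors from -0.0090 to 0.10. For pyrethroids Thrb was at -0.036 against vehicle and from -0.034 to 0.055 with chemicals left out. For thyroid-axis chemicals Hr was at 0.031 against vehicle and from -0.13 to 0.0022 with chemicals left out, Thrb at 0.0070 over single libraries, Dio2 from -0.030 to 0.10 and Thra from -0.00073 to 0.047.

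Counts of genes called moved by over 1.5 times in these settings. At a threshold of 0.01 pyraclostrobin gave 2631, complex I inhibitors 285 and pyrethroids 4. Over the 5121 variably expressed genes, which are fewer, topotecan gave 1784, complex III inhibitors 468, complex I inhibitors 50 and pyrethroids 10. Against vehicle, complex I inhibitors gave 929 and pyrethroids 460. With libraries or chemicals left out, fenamidone gave 490 to 2198 (490 without its library 2), complex III inhibitors 1749 to 3240, complex I inhibitors 4 to 1020 (4 without fenpyroximate) and pyrethroids 1 to 216 (1 without fenpropathrin). Pyraclostrobin gave 3248 to 6246, within 1.5 times. Member-chemical pairs at least 1 from vehicle numbered 74, and 221 at a limit of 0.58. DESeq2 called 4812 genes with pyraclostrobin.

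Treated and vehicle libraries of the count table share header numbers, and the study calls its vehicle controls matched. Deviations of same-numbered libraries correlated at 0.376, 0.102, -0.0287 and 0.161. The limit set for pairing was 0.1, which pair 3 did not reach. Pyraclostrobin library 1 correlated with the other vehicle libraries at -0.221, -0.253 and -0.308. Libraries 2 and 4 correlated more with other vehicle libraries, at up to 0.218 and 0.2, than with their own. By this measure only the first pair stood out, and the main test used no pairs. With the number as a replicate block 4804 genes were called, Dio2 and Thra stayed past the threshold (adjusted p = 0.0086 and 0.00517), and no other member passed. The planned contrast of sulforaphane with vehicle in the presence of fenamidone was not run. Dio3 fell below the count filter, and so has no value, when counts were thinned to the smallest total or certain libraries were left out. Low counts limit Dio3, Hr and Dio2.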
